A study of Rattus norvegicus with 18 samples.

Results

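The genes described here encode the pores and auxiliary subunits of the voltage-gated sodium and calcium channels, the hyperpolarisation-activated HCN channels, the sodium leak channel NALCN, and the calcium release channels of the endoplasmic reticulum. They were chosen by name and level only. A gene was taken when it was annotated as protein-coding, its symbol began with Cacna, Cacnb, Scn, Hcn, Ryr or Itpr and a number, or was Nalcn, and its mean over the 18 libraries was above 1. This gave 42 of the 19113 genes in the table, all among the 18172 genes that passed the same minimum and were tested. They comprise 10 sodium channel alpha subunits, 4 sodium channel beta subunits, 9 calcium channel alpha1 subunits, 4 calcium channel beta subunits, 4 alpha2delta subunits, 4 HCN channels, 3 ryanodine receptors, 3 inositol trisphosphate (IP3) receptors and NALCN. Of 43 matching names, 1 was left out: Cacna1i, a T-type calcium channel gene with a mean of 1396, is listed in the table as a processed transcript.

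RNA was sequenced from micropunches of the basolateral amygdala (BLA) of adult male Sprague-Dawley rats, 6 in each of 3 housing conditions. Rats moved to single housing 2 weeks before collection, after 4 weeks of enrichment (enrichment removal, ER), and rats kept in enrichment throughout (EE) were set against rats in standard housing (SH), which in this experiment meant single housing. The rats were 8 weeks old on arrival. EE rats shared a cage in the active phase, and ER rats were kept in the same way during their 4 weeks of enrichment. Tests that take rats as units therefore do not cover a spread between cages. ERvEE addresses the removal of enrichment, ERvSH the whole sequence of enrichment and removal, and EEvSH enrichment itself.

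Sodium channels of the Nav family carry the rising phase of the action potential, and their beta subunits anchor them and tune their gating. Calcium channels let calcium in at dendrites and at terminals, where it triggers transmitter release, while ryanodine and IP3 receptors release calcium from internal stores. HCN channels and NALCN pass the depolarising currents that set the resting potential and the rhythm of firing, and in principal neurons of the BLA such conductances are known to govern excitability.

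As deposited by the authors, the values are read numbers that were scaled library by library with size factors. Transcript length was not taken into account, so that rats are compared within 1 gene and genes are not ranked against each other. The reads recovered from these values numbered 20171558 to 23450276 in ER libraries, 17753797 to 21931492 in EE libraries and 18688872 to 22177364 in SH libraries. A pair of SH libraries stood apart. On the first principal component of all genes, which held 20.4% of the variance, SH 3 lay at -137 and SH 1 at -45.1, while the other 16 lay between -0.22 and 21.7. Results are therefore given with and without SH 1 and SH 3. Excitatory and inhibitory neuron markers were present in every library (lowest value of Slc17a7 36064, of Gad1 6644), as was the amygdala marker Rspo2 (lowest value 882), while the choroid plexus marker Ttr reached at most 44.2. In a bulk sample, fewer cells of a type and less RNA per cell cannot be told apart.

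Of the 42 genes, 35 had a mean of 100 or more and 23 a mean of 1000 or more. The 7 below 100 were Scn4a, Scn7a, Scn10a, Scn11a, Cacna1f, Cacna1s and Cacna2d4, several of which are best known from muscle, peripheral neurons or retina. In each family, one member with the most reads served as an example. Scn2a, the Nav1.2 pore of excitatory axons, had a lowest, median and highest value of 11250, 11556 and 11923 in ER, of 8725, 11045 and 12346 in EE, and of 9425, 10287 and 11812 in SH. Scn3b, a beta subunit, had 5842, 6340 and 6848 in ER, 5898, 6414 and 6911 in EE, and 4724, 5834 and 6668 in SH. Both genes overlapped across all groups and were lowest in an EE or SH library.

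Cacnb3, a cytoplasmic beta subunit that brings calcium channels to the membrane, had 5264, 5595 and 5798 in ER, 4866, 5364 and 6255 in EE, and 5331, 5632 and 6161 in SH. Hcn2, which passes a pacemaker current, had 1741, 1804 and 1949 in ER, 1699, 1747 and 2082 in EE, and 1592, 1714 and 2097 in SH. These were among the steadiest members, with a highest value 1.29 times the lowest for Cacnb3 and 1.31 times for Hcn2 over the 16 libraries other than SH 1 and SH 3. Itpr1, the main neuronal IP3 receptor, had 4564, 5199 and 6457 in ER, 4844, 5805 and 6656 in EE, and 3031, 5566 and 6753 in SH. Cacna1g, a T-type channel, had 3976, 4321 and 5026 in ER, 3332, 4032 and 5158 in EE, and 2661, 4393 and 5275 in SH. The groups overlapped for each of these genes, and the lowest Itpr1 value belonged to SH 3 and the lowest Cacna1g value to SH 1.

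No channel gene, and no gene of the 18172, passed an adjusted p of 0.05 in limma in EEvSH, ERvSH or ERvEE (0% called in each). At an unadjusted p under 0.05 the count of channel genes was 0 in EEvSH (5.87% of all genes), 6 in ERvSH (7.89%) and 0 in ERvEE (3.66%). edgeR called 0 genes, and DESeq2 called 1 gene in EEvSH, 2 in ERvSH and 2 in ERvEE, none of them a channel gene. No member had groups that did not overlap in any contrast (0.171% of all genes in EEvSH, 0.292% in ERvSH, 0.215% in ERvEE). What follows are therefore values and not calls of change.

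The fold changes leaned to positive values in each contrast. In EEvSH 33 of 42 were above 0, in ERvSH 34 and in ERvEE 33, beside 53.7%, 51.8% and 50.9% of all genes. The median log2 fold change of the 42 was 0.13 in EEvSH, 0.16 in ERvSH and 0.11 in ERvEE, while the median of all genes was 0.02, 0.01 and 0.00. EEvSH and ERvSH share the SH libraries, and ERvEE shares its groups with both.

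Leaving out SH 1 and SH 3 turned the EEvSH median to -0.11, with 10 of 42 above 0 (49.6% of all genes). The ERvSH median became 0.01 with 23 of 42 above 0 (50% of all genes). ERvEE holds no SH library, so its median stayed 0.11 and its count 33. SH 3 alone was enough for the EEvSH median, which was -0.02 without it. The ERvSH median was 0.09 without SH 3, and the ERvEE median was 0.06 without EE 5.

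**Figure D1:**
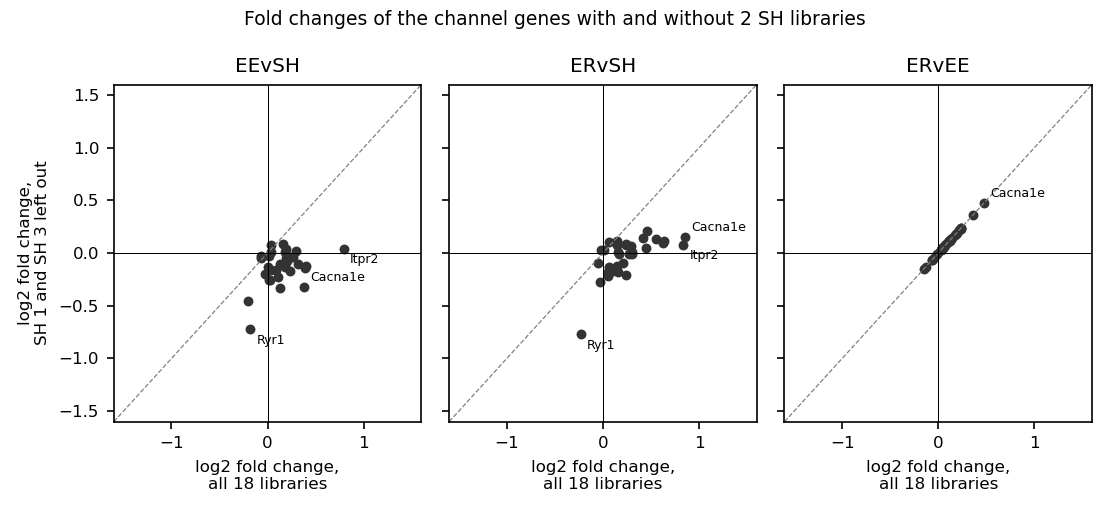
Each point is 1 of 32 of the 35 channel genes with a mean of 100 or more, with its log2 fold change from all 18 libraries on the horizontal axis and from the 16 without SH 1 and SH 3 on the vertical axis. Of the 32 points, 29 fall below the dashed line of equality in EEvSH and 29 in ERvSH, where the medians of the 42 genes go to -0.11 and 0.01, and lie on it in ERvEE.

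Library by library, the median deviation of the 42 genes from the mean of the 16 other libraries, in log2 units, lay between -0.04 and 0.10 in ER, with a median of 0.05, between -0.26 and 0.05 in EE, with a median of -0.02, and between -1.01 and 0.16 in SH, with a median of -0.00. The lowest libraries were SH 3 at -1.01, SH 1 at -0.40 and EE 5 at -0.26. In SH 3, 36 of the 42 genes lay below the reference and in SH 1, 32. Their medians over all genes were -0.07 and -0.03. Together the 42 genes took 0.388 to 0.426% of all values in ER, 0.345 to 0.414% in EE, and 0.258 to 0.435% in SH, where SH 3 was lowest.

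**Figure D2:**
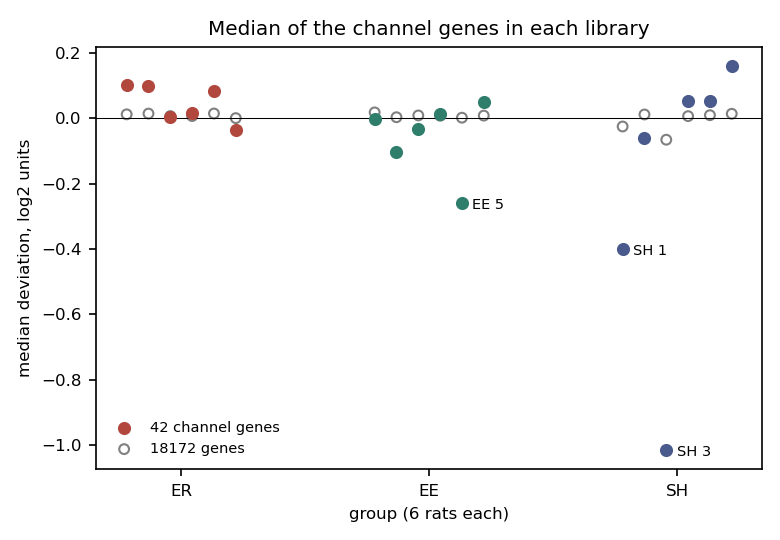
Median deviation of the 42 channel genes (filled) and of 18172 genes (open) in each library, in log2 units from the mean of the 16 libraries other than SH 1 and SH 3, with 6 rats per group. SH 3 sits at -1.01, SH 1 at -0.40 and EE 5 at -0.26, and all other filled points lie between -0.10 and 0.16.

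The genes did not share this deficit evenly. SH 3 was below all 16 other libraries for 27 of the 42 genes and above them for 3, and SH 1 was below them for 21 and above them for 0. Among all genes SH 3 was below the 16 for 26.9% and above for 23.9%, and SH 1 below for 18.3% and above for 18.7%. The lowest deviations in SH 3 among the 35 better-covered genes were those of Itpr2 at -3.59, Cacna1e at -3.32, Cacnb4 at -2.57 and Scn8a at -2.47. Cacna1e, the R-type pore Cav2.3, had 300 in SH 3, against 2120 to 3646 in SH 2, SH 4, SH 5 and SH 6. Scn8a, the Nav1.6 pore of axon initial segments and nodes, had 687, against 2790 to 4480 in those 4. At the other end Hcn2, Cacnb1 and Cacnb3 lay above their means there by 0.23, 0.18 and 0.17.

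Genomic span moved with these deviations. Spans from the RefSeq table of the GRCr8 assembly were found for 82.5% of the tested genes and all 42 members. The members were long, with a median of 118 kb against 24.4 kb for all genes, and 26 of 42 fell in the longest of 5 equal classes of span. In SH 3 the median deviation of all genes was 0.33 in the shortest class and -0.51 in the longest, and in SH 1 it was 0.21 and -0.21. In the other 16 libraries it stayed between -0.08 and 0.08 in every class. The 26 members of the longest class had a median of -1.22 in SH 3 and -0.42 in SH 1, and the 4 members in the class next to the shortest 0.01 and -0.35. Cacna2d3, with the longest span of 814 kb, lay at -0.20 in SH 3. The part of span in these values was not tested.

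**Figure D3:**
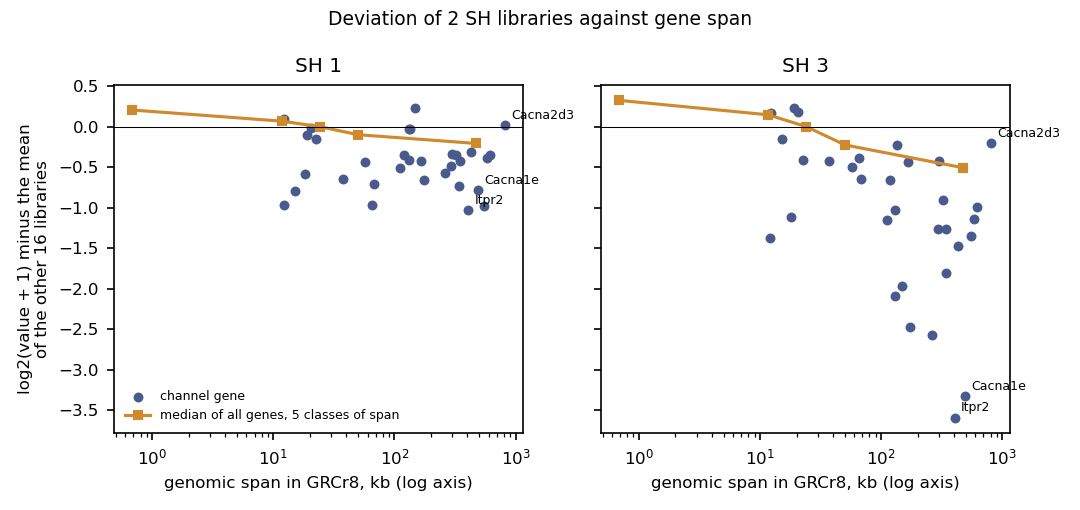
Deviation of SH 1 and SH 3 from the mean of the other 16 libraries (log2 units) against genomic span in GRCr8 on a log axis, with points for 32 of the 35 channel genes with a mean of 100 or more and squares for the median of all genes in 5 equal classes of span. In SH 3 the squares run from 0.33 to -0.51, and Itpr2 and Cacna1e lie lowest at -3.59 and -3.32.

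**Figure D4:**
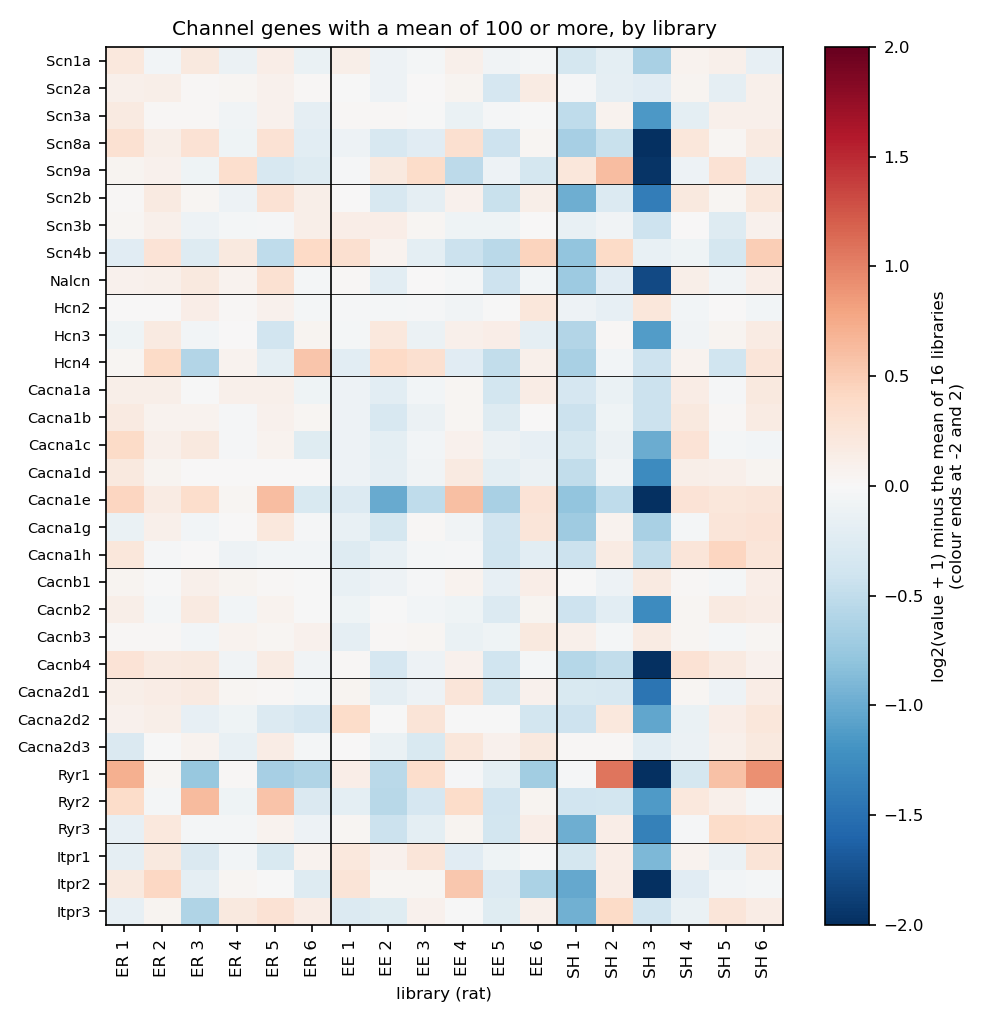
Deviation of 32 of the 35 channel genes with a mean of 100 or more (rows, by family) in each library (columns, ER, EE, SH), as log2(value + 1) minus the mean of the 16 libraries other than SH 1 and SH 3. In SH 3, 29 of the 32 genes lie below 0 (blue) and 16 below -1.

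In ERvSH, the 6 members with the smallest p all had p under 0.05 and were higher in ER (4.57% of all genes were higher at that p), each with an adjusted p of 0.567 in limma. Nalcn, Scn1a, Cacna2d1, Ryr2 and Scn2b were among them. Nalcn, the sodium leak channel, had a lowest, median and highest value of 3151, 3444 and 4002 in ER, against 923, 2927 and 3526 in SH, and 2419, 3111 and 3282 in EE. The groups overlapped, all ER rats lay above the SH median, and the SH minimum was SH 3, followed by SH 1 at 1944. Its log2 fold change in ERvSH was 0.55 (SE 0.228), and 0.13 (SE 0.088) without SH 1 and SH 3.

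Scn1a, the Nav1.1 pore of parvalbumin interneurons, had 2236, 2531 and 2847 in ER, 2292, 2397 and 2655 in EE, and 1564, 2165 and 2644 in SH. The ERvSH fold change was 0.24 (SE 0.106) and became 0.09 without the pair. Scn2b, a beta subunit joined to the pore by a disulphide bond, had 1329, 1504 and 1741 in ER, 1051, 1343 and 1543 in EE, and 548, 1321 and 1671 in SH. Its ERvSH value of 0.45 became 0.05 without SH 1 and SH 3, which held 727 and 548.

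Cacna2d1, the gabapentin-binding alpha2delta subunit, had 3778, 4091 and 4391 in ER, 3057, 3839 and 4613 in EE, and 1405, 3387 and 4283 in SH. Its ERvSH fold change was 0.41 (SE 0.187), and 0.14 without the pair. Ryr2, the main ryanodine receptor of forebrain neurons, had 3483, 4815 and 6589 in ER, 2889, 3545 and 5483 in EE, and 1940, 3738 and 4955 in SH. Its ERvSH value was 0.46 (SE 0.209) and stood at 0.21 without SH 1 and SH 3. The count of 6 was 0 without SH 1, 2 or 3 without any of ER 1, ER 2, ER 3, ER 5, SH 2 and SH 3 (without SH 3, 1 higher and 2 lower), and 13 without SH 5, 14 without SH 4 and 16 without SH 6. All 6 ERvSH values kept their sign and none kept a p under 0.05 when the pair was left out.

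Without the pair, 4 members had p under 0.05 in ERvSH (6.45% of all genes), 3 lower, with Cacna1h and Ryr1 among them, and 1 higher. The lowest adjusted p was 0.657. No ERvSH member was free of overlap in either set of libraries (1.49% of all genes without the pair).

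In EEvSH the 6 members with the smallest p were Scn3b, Scn1a, Itpr2, Cacna2d1, Cacna1h and Scn3a, each with an adjusted p of 0.749. The log2 fold change of Scn3b was 0.16 (SE 0.0752), of Scn1a 0.19, of Cacna2d1 0.30 and of Scn3a 0.24. Without SH 1 and SH 3 these became 0.08, 0.04, 0.02 and -0.04. Scn3a, the Nav1.3 pore prominent in the embryonic brain, had 952, 1042 and 1071 in EE, against 474, 1009 and 1122 in SH, with SH 3 lowest.

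Itpr2, an IP3 receptor best known from astrocytes in the brain, had 149, 182 and 240 in ER, 115, 184 and 262 in EE, and 14, 162 and 199 in SH. The SH minimum was SH 3, and SH 1 held 87.5, below every EE and ER rat. The EEvSH fold change was 0.79 (SE 0.447) with all libraries and 0.04 without that pair.

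Cacna1h, the T-type channel Cav3.2 that opens near rest and supports burst firing, had 1363, 1583 and 1770 in EE, against 1277, 2069 and 2410 in SH, and 1673, 1753 and 2105 in ER. SH 3 at 1277 and SH 1 at 1331 lay below every EE rat, and the other 4 SH rats, from 2011 to 2410, lay above every EE rat. The EEvSH fold change was -0.21 (SE 0.132, adjusted p = 0.749) with all libraries. Without the pair it was -0.45 (SE 0.078), with the smallest p of the 18172 genes, 1.32e-05, and an adjusted p of 0.114 in limma. The adjusted p ranged from 0.0994 to 1.00 over the alternatives tried, the lowest by edgeR without the pair, and the fold change from -0.45 to -0.13.

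Cacna1h was also lower in ER than in the remaining SH rats, with a log2 fold change of -0.27 (SE 0.078, adjusted p = 0.657), and higher in ER than in EE, with 0.18 (SE 0.0698, adjusted p = 0.629). In ER the highest rat, ER 1 at 2105, stood apart from the other 5. With all SH libraries the ERvSH value was -0.03. It was the only member whose EE and SH groups did not overlap without the pair, where 1.65% of all genes did not.

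Without SH 1 and SH 3, 5 members had p under 0.05 in EEvSH, all lower in EE (4.52% of all genes were lower at that p): Cacna1h, Ryr3, Cacna1b, Cacna1g and Ryr1. Ryr3, a ryanodine receptor spread widely in the brain, had 999, 1283 and 1479 in EE, against 530, 1399 and 1741 in SH, where SH 3 and SH 1 held 530 and 681 and the other 4 held 1321 to 1741. Its fold change was 0.13 (SE 0.232) with all libraries and -0.33 (SE 0.11) without the pair. EE and the remaining SH rats overlapped.

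Cacna1b, the N-type presynaptic pore Cav2.2, had 3444, 3974 and 4409 in EE, against 3176, 4191 and 4923 in SH, of which the 4 without the pair held 4019 to 4923. Its fold change was -0.03 with all libraries and -0.20 (SE 0.0711) without the pair. The value of Cacna1g was 0.02 and -0.25 (SE 0.102). Ryr1, the ryanodine receptor of skeletal muscle and Purkinje cells, had 91.8, 139 and 192 in EE, 88.2, 125 and 246 in ER, and 34.4, 187 and 317 in SH, and gave -0.18 and -0.72 (SE 0.296) in EEvSH. For ERvSH, Ryr1 gave -0.23 and -0.77.

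ERvEE is free of SH libraries, though with all 18 libraries in 1 fit their spread enters its standard errors. The median SE of the 42 genes was 0.197 with all libraries and 0.1 without SH 1 and SH 3. Without the pair the fold changes stayed as they were and 7 members had p under 0.05, all higher in ER (3.76% of all genes were higher at that p). The count was also 7 when ER and EE were fitted alone (3.36% of all genes). The 7 without the pair were Nalcn, Cacna1b, Cacna1h, Ryr2, Cacna1e, Scn2b and Cacnb4, each with an adjusted p of 0.629 in limma.

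By family, 8 of 9 calcium channel alpha1 genes, all 4 calcium channel beta genes, 8 of 10 sodium channel alpha genes and 3 of 4 HCN genes were positive in ERvEE, and 2 of 4 alpha2delta genes. The median was 0.17 for the alpha1 subunits, 0.10 for the calcium channel beta subunits, 0.08 for the sodium channel alpha subunits, 0.10 for the sodium channel beta subunits, 0.05 for the HCN genes and -0.01 for the alpha2delta subunits.

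Cacna1b had 4221, 4494 and 4828 in ER, against 3444, 3974 and 4409 in EE, a log2 fold change of 0.19 (SE 0.101 with all libraries, 0.0636 without the pair). The ER median lay above the highest EE rat, and the groups overlapped. Nalcn gave 0.24 (SE 0.228 and 0.0787) from the values above, with 5 of 6 ER rats above the highest EE value. Ryr2 gave 0.37 (SE 0.209 and 0.162).

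Cacna1e had 2430, 3597 and 4625 in ER, 1498, 2298 and 4542 in EE, and 300, 2824 and 3646 in SH. Its ERvEE fold change was 0.48 (SE 0.452 and 0.22), with EE 1, EE 4 and EE 6 inside the ER range. Cacna1a, Cacna1f and Scn2a were also among the 6 members with the smallest p with all libraries. Cacna1a, the P/Q-type pore of fast release sites, had 3843, 4357 and 4405 in ER and 3154, 3857 and 4518 in EE, a fold change of 0.15 (SE 0.101). Cacna1f, the L-type channel of photoreceptors, had 4.89, 13.1 and 20.1 in ER and 2.42, 7.19 and 17.4 in EE, so that its value of 0.67 (SE 0.461) rests on few reads. Scn2a gave 0.11 (SE 0.0752).

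**Figure D5:**
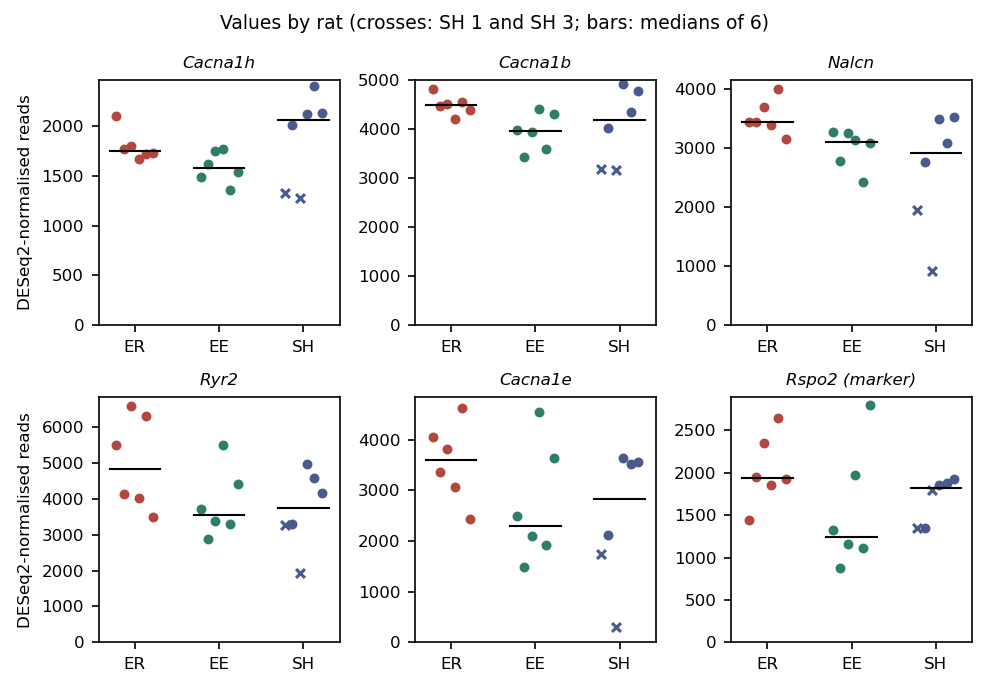
Deposited values (reads divided by a size factor) of 5 channel genes and the marker Rspo2 in each rat by group, with bars at the medians of 6 and crosses for SH 1 and SH 3. Cacna1h in the 4 other SH rats (2011 to 2410) lies above EE (1363 to 1770), and EE 2, EE 3 and EE 5 are low in Ryr2, Cacna1e and Rspo2 alike. Not every amygdala marker shared this order.

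In the amygdala and excitatory neuron marker lists, the summed level of 4 of 6 EE libraries lay below that of every ER library. For amygdala markers these were EE 1, EE 2, EE 4 and EE 5. For excitatory markers EE 3 took the place of EE 4. The sums followed Ryr2 and Cacna1e in some libraries only. EE 2 and EE 5 were low in both sums and both genes. EE 4 had an amygdala sum of 19615 but was among the highest 4 for both genes. ER 1 had the lowest ER amygdala sum and was also among those 4. ER 6 had sums of 24636 and 68557 but the lowest ER values of both genes. All 5 amygdala markers and all 5 excitatory markers were measured and none was at 0. The summed level of the amygdala list was 19853 to 25044 in ER, 13568 to 26474 in EE and 18261 to 23659 in SH, and of the excitatory list 63819 to 68609 in ER, 53234 to 72193 in EE and 52835 to 67037 in SH. Myelinating oligodendrocyte markers, 6 of 6 measured, summed to 70971 to 108460 in ER, 69661 to 166777 in EE and 72954 to 119652 in SH, with EE 1 and EE 5 highest. Thalamus markers, 3 of 3 measured, summed to 559 to 723 in ER, 546 to 881 in EE and 644 to 759 in SH. Rspo2 had 1441, 1941 and 2645 in ER and 882, 1240 and 2795 in EE. In the 16 libraries other than SH 1 and SH 3, EE 2, EE 3 and EE 5 were among the lowest 4 for Ryr2, Cacna1e and Rspo2 alike, and ER 1, ER 3, ER 5 and EE 4 were the highest 4 for both channel genes. These genes were picked after their values had been seen. Other markers of the same lists ran the other way. Lypd1, an amygdala marker, had 2593 in EE 2 and 2299 in EE 3, against 796 to 1729 in ER. Slc17a6, an excitatory marker, had 1511, 1950 and 1360 in EE 2, EE 3 and EE 5, against 158 to 1323 in ER. Striatum-type neuron markers, 7 of 7 measured, summed to 6303 to 7502 in ER 1, ER 3 and ER 5. They summed to 12346 or more in ER 2, ER 4 and ER 6, and to 11088 in EE 4. Sums ran from 8525 to 12640 in EE and from 7006 to 14520 in SH. Within this list Penk was 3539 to 3959 in ER 1, ER 3 and ER 5, and 9339 to 10309 in ER 2, ER 4 and ER 6. Ppp1r1b ran the other way, with 1498 to 2052 and 1289 to 1304. The part of the markers in the ERvEE values was not tested.

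Windows around annotated starts are shown for 5 of the 7 members with p under 0.05 in ERvEE without the pair. These 5 had a matched window, and their sequence can be set beside their values. RefSeq windows of 300 bases in GRCr8, 250 before and 50 after the start, were matched for 30 of the 42 members. Cacna1g, Cacna1h, Cacna2d4, Cacnb1, Cacnb4, Hcn3, Hcn4, Scn1a and Scn3b were among those not matched. The 5 windows of Nalcn (chr15:107147809-107148108, minus strand), Cacna1e (chr13:69444761-69445060, minus strand), Cacna1b (chr3:27944236-27944535, minus strand), Ryr2 (chr17:63081277-63081576, plus strand) and Scn2b (chr8:54322133-54322432, plus strand) are given 5′ to 3′, with capitals for the GC box GGGCGG on either strand.
Nalcn: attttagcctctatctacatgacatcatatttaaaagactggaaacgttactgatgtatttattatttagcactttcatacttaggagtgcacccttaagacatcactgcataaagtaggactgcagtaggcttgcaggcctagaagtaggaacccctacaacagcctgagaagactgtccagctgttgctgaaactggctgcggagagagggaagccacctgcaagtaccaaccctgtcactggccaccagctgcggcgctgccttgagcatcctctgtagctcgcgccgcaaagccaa
Cacna1e: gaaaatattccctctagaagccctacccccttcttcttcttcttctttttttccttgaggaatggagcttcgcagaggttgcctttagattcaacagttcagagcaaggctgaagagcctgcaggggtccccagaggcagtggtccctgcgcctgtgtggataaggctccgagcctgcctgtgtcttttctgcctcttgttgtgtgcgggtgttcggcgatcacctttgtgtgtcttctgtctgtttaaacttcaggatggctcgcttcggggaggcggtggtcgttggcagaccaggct
Cacna1b: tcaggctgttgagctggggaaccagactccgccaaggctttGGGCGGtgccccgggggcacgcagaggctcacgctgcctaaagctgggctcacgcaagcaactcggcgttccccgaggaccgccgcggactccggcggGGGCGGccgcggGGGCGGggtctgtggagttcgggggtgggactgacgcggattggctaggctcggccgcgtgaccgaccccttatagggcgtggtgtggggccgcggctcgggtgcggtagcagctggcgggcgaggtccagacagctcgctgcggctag
Ryr2: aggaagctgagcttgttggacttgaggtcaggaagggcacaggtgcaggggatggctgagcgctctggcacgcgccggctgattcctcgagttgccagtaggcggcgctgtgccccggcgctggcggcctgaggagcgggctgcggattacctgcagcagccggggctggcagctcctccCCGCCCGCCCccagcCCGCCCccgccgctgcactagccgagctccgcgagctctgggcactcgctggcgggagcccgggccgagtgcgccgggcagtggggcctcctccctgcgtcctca
Scn2b: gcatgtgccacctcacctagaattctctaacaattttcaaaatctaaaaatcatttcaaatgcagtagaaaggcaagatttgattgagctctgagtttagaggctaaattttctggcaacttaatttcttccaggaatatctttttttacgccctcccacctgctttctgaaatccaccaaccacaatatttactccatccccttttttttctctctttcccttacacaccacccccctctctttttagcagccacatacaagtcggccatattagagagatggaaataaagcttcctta

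Of these windows, those of Cacna1b and Ryr2 had 3 GC boxes each and 34 and 28 CpG sites. Those of Nalcn, Cacna1e and Scn2b had no GC box and 7, 10 and 2 CpG sites. Whether transcription in the BLA begins at the annotated starts was not tested. A window without a GC box therefore need not be a promoter without one. Searched on both strands, GGGCGG was in 18 of the 30 member windows (60%) and in 33.1% of 33469 windows of all genes. Those windows were not limited to protein-coding genes, to genes measured here or to 1 window per gene, as the members were. The 2 sets are therefore unlike in more than channel function. The TATA sequence TATAAA was in 1 of the 30, that of Cacna1s, and in 14.2% of all, and the cyclic AMP response element TGACGTCA in 0 of the 30 and 1.83% of all. The median number of CpG sites was 18.5 in the members and 7 in all windows, and the median GC content 66.8% and 51.7%.

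Genes that work with these channels gave values that differed by list. Partners of calcium channels had 16 measured entries, of which more than 1 was for Calm2. The medians of these entries were 0.05 in EEvSH, 0.01 in ERvSH and 0.07 in ERvEE, with 9, 9 and 12 positive. The 26 measured potassium channel genes (Kv, KCNQ and related families) repolarise the membrane. Of these, 19 were positive in EEvSH, 20 in ERvSH and 20 in ERvEE, beside 53.7%, 51.8% and 50.9% of all genes. Their medians were 0.06, 0.14 and 0.07, and none passed the adjusted test. Without SH 1 and SH 3 the EEvSH median of this list was -0.10, with 8 of 26 positive (49.6% of all genes). At p under 0.05 in ERvEE without the pair, 4 were higher and 0 lower, with Kcnq3, Kcnq5 and Kcnma1 among those higher. Among all 18172 genes, 684 (3.76%) were higher and 740 lower at that p. Of 10 measured partners of sodium channels at the axon initial segment, 2 were higher at that p (Fgf14 and Ank2) and 0 lower, with a median of 0.08. Of 25 genes of intracellular calcium handling 1 was higher (Orai2), about the share of all genes, and 0 lower, with a median of 0.06. Of the 16 entries for partners of calcium channels 1 was higher (Camk2a) and 2 were lower (Rrad and Rims2). Of 5 measured partners of HCN channels and NALCN 1 was higher (Unc80, a subunit of the NALCN complex).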

How the data were processed

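The deposited signal is the result of alignment with HISAT2, counting by gene and scaling of each library with DESeq2, all done by the authors. Tool versions, build, annotation, counter and strand setting: not given in the sources used here. Paralogs or overlapping genes may share reads. Low values were whole multiples of 1 step in each library. Divided by it, 100% of those up to 1000 were whole within 0.01, which gave the recovered reads. Genes with a mean above 1 (18172 of 19113) were fitted as log2(value + 1) with limma 3.58.1 in R 4.3.3 (trend, empirical Bayes, 18 libraries, 3 groups), with Benjamini-Hochberg adjustment over all genes tested calling genes under 0.05. Fold changes are differences of group means on that log2 scale, which understates those of low genes. The fit was tested on simulated data.

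Every member was counted, and the values of some are not reported here. Named with values were, with those exceptions, per contrast, the 6 members with the smallest p and the 3 with the smallest p without SH 1 and SH 3, any with groups that do not overlap, and the member with most reads in each family. Others were named after their values were seen. Members, lists and rules were chosen with earlier results of these data known. Alternatives changed scaling (TMM, upper quartile), filter, pseudocount (0.1, 5), libraries, sample weights, replicate block and test (edgeR 4.0.16 and DESeq2 1.42.0 on recovered reads). edgeR without SH 1 and SH 3, and without EE 3, was added after the data were seen.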

Additional observations from a re-analysis of the deposited data

Results flagged for a closer look

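Within groups of 6 rats, 3 values among 66 groups checked (21 genes and the median over the 42 genes, in 3 groups each) stood apart from the other 5, where chance gives about 1 in 20. Cacna1h was 2105 in ER 1, the highest ER rat by a gap of 0.708 of the range of the group. Hcn2 was 2082 in EE 6, the highest EE rat by a gap of 0.796 of the range. Scn3a was 952 in EE 4, the lowest EE rat by a gap of 0.716 of the range. Neither SH 1 nor SH 3 was separated from the rest of its group by this measure for these genes. Where both were low, as for Nalcn, the measure sees only the gap between neighbouring values. They were not low in every gene: SH 3 was the highest SH rat for Hcn2, at 2097.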

How the results depend on the processing

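Over all alternatives tried, limma, edgeR and DESeq2 called no channel gene in any contrast. Genes called in all numbered 1, 2 and 2 with DESeq2 in EEvSH, ERvSH and ERvEE, and in ERvEE 0 to 1 with each library left out (1 without EE 6). The channel median in EEvSH was -0.11 without SH 1 and SH 3 (-0.11 by edgeR) and -0.066 with sample quality weights, and it ranged from -0.021 to 0.18 with 1 library left out, lowest without SH 3. The ERvSH and ERvEE medians kept their sign in all alternatives. Channel genes at unadjusted p under 0.05 numbered, in EEvSH, 5 without SH 1 and SH 3, by limma or edgeR, 5 with sample weights, 1 with no filter, 1 with protein-coding genes alone, 1 with the replicate block and 0 to 2 with 1 library left out. In ERvEE they numbered 7 without the pair (6 by edgeR), 7 with only the 2 groups, 6 with sample weights and 0 to 2 with 1 library left out. In ERvSH they numbered 3 with edgeR (2 without EE 3), 3 with no filter, 2 with only the 2 groups and 0 to 16 with 1 library left out, 0 without SH 1, 3 without SH 3 and 16 without SH 6.

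Single genes changed sign as follows. Ryr3 in EEvSH was -0.33 without SH 1 and SH 3 (-0.33 by edgeR), -0.30 with sample weights, -0.019 without SH 1 and -0.092 without SH 3 (range with 1 library left out -0.092 to 0.25). Scn3a in EEvSH was -0.037 without the pair (-0.045 by edgeR) and -0.0065 with sample weights. Cacna1b in EEvSH was 0.011 without EE 2, 0.031 without SH 4 and 0.023 without SH 6 (range -0.096 to 0.031). Cacna1h in ERvSH was 0.0011 without SH 2, 0.017 without SH 4, 0.053 without SH 5 and 0.018 without SH 6 (range -0.13 to 0.053). The cause of these moves was not tested beyond the libraries left out. Replicate numbers did not pair the rats (1 of 18 same-numbered pairs correlated above 0.1, range -0.08 to 0.13), and the replicate block left the 3 medians as they were, at 0.13, 0.16 and 0.11. The precision was limited by the spread between rats: the median SE of the 42 genes was 0.197 with all libraries and 0.112 in EEvSH without SH 1 and SH 3.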
